A study of Homo sapiens with 6 samples.

Results

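Collagen chain genes outside the fibril-forming and basement membrane classes were described in LX-2 cells, an immortalised line derived from human hepatic stellate cells. The members were fixed by gene symbol: COL6A1, COL6A2 and COL6A3 (microfibrillar), COL7A1 (anchoring fibrils), COL8A1 and COL8A2 (network-forming), COL12A1, COL14A1 and COL16A1 (fibril-associated collagens with interrupted triple helices, or FACIT) and COL13A1 (transmembrane). All 10 were rows of the count table, out of 58735 genes and out of 44 genes whose symbol names a collagen chain, and 9 of the 10 passed the filter on low counts. RNA sequencing covered 6 libraries in 2 groups of 3, all of LX-2 cells labelled as wild type and transfected with siRNA (small interfering RNA) that targets NSUN2, an enzyme that methylates cytosines in RNA. One group then received human recombinant TGF-β1 at 5 ng/ml for 24 hours, starting 48 hours after transfection, and the other received the siRNA alone. For the untreated group no time after transfection is recorded. A difference between the groups in that time therefore cannot be told apart from TGF-β1. The comparison, TGF-β1 minus no TGF-β1, describes how transcript levels differ between NSUN2 siRNA cells with and without this fibrogenic cytokine. It says nothing of the siRNA itself, because cells without it were not analysed here. LX-2 is a single line. The replicates are labelled biological, but no label says that separate cultures were used, so p-values measure the spread between these libraries, which may be technical.

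Most of these collagens decorate or link the fibrils rather than form them. Collagen VI is assembled from different chains, joins into beaded microfibrils around cells, and connects them to the surrounding matrix. Collagen VIII forms short-chain networks, collagen VII forms the anchoring fibrils beneath epithelia, collagens XII, XIV and XVI sit on or near fibril surfaces, and collagen XIII spans the plasma membrane at cell adhesions. In the injured liver activated stellate cells are a main source of interstitial collagens, collagen VI among them.

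Depth ran from 25828504 to 30034762 counts per library. The correlation of log2 CPM (counts scaled to a common library size) was 0.988 to 0.990 for libraries of the same group and 0.971 to 0.974 across groups. On the second principal component TGF-β1 replicate 1 (score 33.1) and replicate 3 (-27.4) lay apart, while the untreated libraries lay between -1.59 and 1.67. NSUN2, the labelled siRNA target, had 2541, 2781 and 2638 counts with TGF-β1 and 2546, 2525 and 2364 without. Scaled for library size it was higher with TGF-β1, at 100.5 ± 3.07 CPM against 82.9 ± 1.47 CPM without (SD, n = 3 each; log2 fold change 0.28, edgeR adjusted p = 1.57e-06), so the level of the target itself differed between the groups compared. The series' description of its design writes NAT10 siRNA for these cells, and the sample labels were followed. All 6 libraries carry the siRNA, so its target gives no check of the knockdown here. Of 10 stellate cell markers 8 averaged at least 1 CPM over the 6 libraries. LRAT had 0 counts in every library and DES at most 6. The 8 markers moved in opposite directions. Means were lower with TGF-β1 for ACTA2 (4.29 CPM against 7.15 CPM without), HAND2, GATA4 and RELN. RELN was at only 0.464 CPM with TGF-β1 and above 1 CPM without. Means were higher with TGF-β1 for PDGFRB (76.2 CPM against 22.6 CPM without), LOX, TIMP1 and VIM. Of 5 hepatocyte markers, the albumin gene ALB had at most 1 count, APOA1 at most 4, and TTR and CYP3A4 had 0, whereas SERPINA1 averaged 22.1 CPM with TGF-β1 and 24.8 CPM without. Cholangiocyte and epithelial markers summed to 3.94 to 5.37 CPM with TGF-β1 and to 2.72 to 3.58 CPM without, mostly from KRT7. Endothelial markers summed to 1.51 to 1.94 CPM with TGF-β1 and to 1.82 to 2.37 CPM without. The leukocyte and macrophage markers summed to 2.74 to 5.83 CPM with TGF-β1 and to 8.11 to 10.4 CPM without, nearly all of it from CD14, while the pan-leukocyte gene PTPRC had at most 4 counts. Their part in the results was not tested.

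With TGF-β1, 7 members changed, in opposite directions. COL6A3 was 3.30-fold higher, COL7A1 1.91-fold, COL6A2 1.32-fold and COL6A1 1.21-fold, while COL13A1 was 3.82-fold lower, COL8A1 1.91-fold lower and COL12A1 1.76-fold lower. COL16A1 and COL8A2 did not pass the test, and COL14A1 had too few counts to be tested. Calls were made with edgeR's quasi-likelihood test at a Benjamini-Hochberg threshold of 0.05 over the 17215 genes tested. The members were chosen with earlier results of these data known, so the comparisons with all genes that follow are description only. Of the 9 tested members 7 were called, against 38.9% of all tested genes. Higher calls numbered 4, against 20.2%, and lower calls 3, against 18.7%. In 7 of the 9 the CPM ranges of the groups were apart, against 47.4% of all tested genes. Among calls that also reached 1 on the log2 scale in either direction, only COL6A3 among the tested members rose and only COL13A1 fell, against 3.11% and 3.40% of all tested genes. The median log2 fold change was 0.27 over the 9 tested members and -0.01 over all tested genes. The libraries are bulk RNA, so more RNA per cell and more cells of a kind cannot be told apart.

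**Figure D1:**
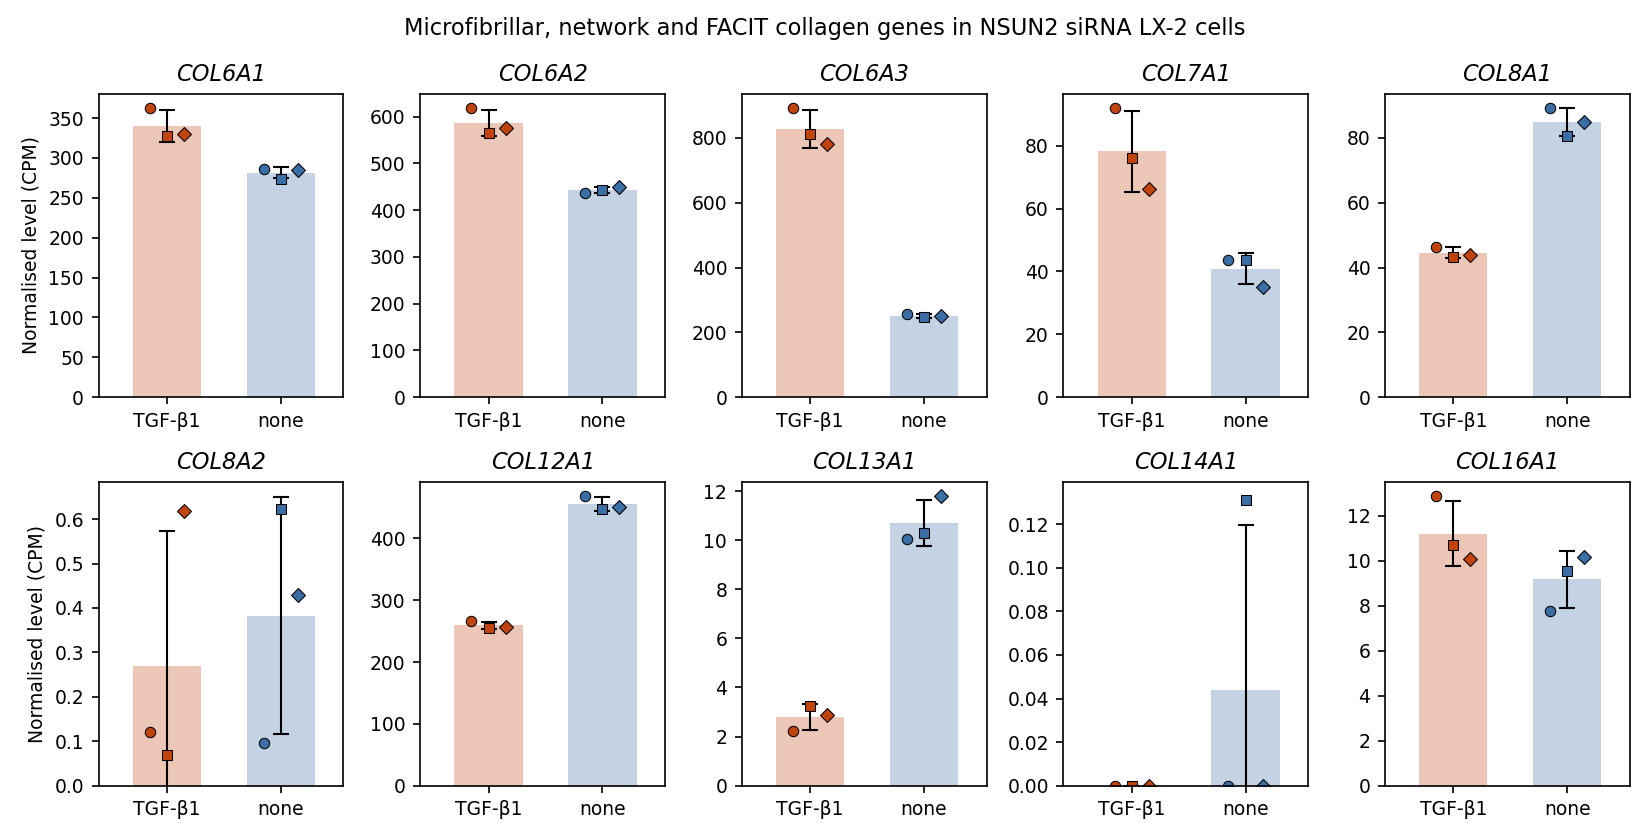
Normalised level of each member (CPM, linear axis from 0, own scale per panel) in cells with TGF-β1 (left) and without (right), n = 3 libraries each. Bars are means, error bars are SD, and circles, squares and diamonds are replicates 1, 2 and 3; the groups are apart in 7 panels and overlap for COL8A2, COL14A1 and COL16A1.

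The stretches directly upstream of 4 of the called members are shown because they are the start regions of genes that moved in opposite directions. They come from RefSeq (GRCh38.p14), run 5′ to 3′ towards the start of transcription, and end where the first annotated GENCODE exon or the RefSeq start begins. Capitals mark the SMAD box (CAGAC or its reverse complement GTCTG) and the TATA box (TATAAA or TTTATA).
COL6A2, chr21:46097862-46098096, plus strand: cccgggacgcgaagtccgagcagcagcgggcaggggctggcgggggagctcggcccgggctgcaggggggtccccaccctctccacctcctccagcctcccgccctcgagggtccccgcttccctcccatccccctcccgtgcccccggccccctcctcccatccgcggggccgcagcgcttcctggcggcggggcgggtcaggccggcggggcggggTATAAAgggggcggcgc
COL7A1, chr3:48595330-48595579, minus strand: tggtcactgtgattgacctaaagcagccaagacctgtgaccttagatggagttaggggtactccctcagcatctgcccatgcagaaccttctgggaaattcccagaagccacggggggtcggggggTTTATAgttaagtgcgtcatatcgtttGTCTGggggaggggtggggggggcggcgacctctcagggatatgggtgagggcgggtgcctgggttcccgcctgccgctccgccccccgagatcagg
COL12A1, chr6:75206054-75206303, minus strand: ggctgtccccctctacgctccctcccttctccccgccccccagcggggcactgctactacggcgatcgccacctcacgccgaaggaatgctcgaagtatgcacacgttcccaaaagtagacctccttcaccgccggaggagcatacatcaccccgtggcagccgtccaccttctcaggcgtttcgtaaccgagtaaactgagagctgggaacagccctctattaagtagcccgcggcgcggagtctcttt
COL13A1, chr10:69801656-69801866, plus strand: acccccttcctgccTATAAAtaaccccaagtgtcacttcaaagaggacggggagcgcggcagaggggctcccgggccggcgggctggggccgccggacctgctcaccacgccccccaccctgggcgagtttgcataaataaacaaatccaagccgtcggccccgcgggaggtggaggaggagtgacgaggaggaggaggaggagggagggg

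Of the 10 members 7 had an entry in the promoter table, and 6 motifs were searched on both strands of the 250 bases before each start. No motif searched is contained in another. The SMAD box, the short element bound by SMAD proteins, was found for COL6A3 and COL7A1, which rose, and for COL16A1, which was not called. It occurs in 38.0% of all 35116 windows of that length. An annotated exon began 39 bases into the COL6A3 window and at the first base of the COL16A1 window. Their matches, 138 and 179 bases before the RefSeq start, thus lay past the first annotated exonic base, unlike that of COL7A1. The SMAD box was not in the windows of COL6A2, which rose, COL12A1 and COL13A1, which fell, and COL8A2, which was not called. TATAAA was found for COL6A2, COL7A1 and COL13A1 (10.7% of all windows). In COL6A2 it began 32 bases before the start, and in COL7A1 and COL13A1 124 and 236 bases before it. The GC box GGGCGG was found for 5 of the 7 (42.6% of all windows) and the TEAD site GGAATG for COL12A1 alone (11.9%). The AP-1 site TGANTCA (6.57%) and CCAAT (32.0%) were in none of the 7 windows. These matches describe letters only, and binding was not measured.

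The collagen VI genes all rose, and by unequal amounts. COL6A3 encodes the α3 chain, the longest of the heterotrimer, whose C-terminal end is released as the fragment endotrophin. It lies on chromosome 2 from 237324003 to 237414375 on the minus strand (hg38), with 44 exons in its longest annotated transcript. Its level was 893, 811 and 781 CPM in TGF-β1 libraries and 258, 246 and 249.5 CPM in untreated ones. Every TGF-β1 library stood far above every untreated one, and replicate 1 was the highest of its group. The means were 828 ± 57.9 CPM with TGF-β1 and 251 ± 6.20 CPM without (SD, n = 3 each), a log2 fold change of 1.72 ± 0.04 (SE; edgeR adjusted p = 3.41e-24). That change lay at percentile 98.5 of all tested genes. Without TGF-β1 replicate 1 it was 1.67.

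COL6A1 and COL6A2 encode the α1 and α2 chains and lie near each other on chromosome 21, both on the plus strand, from 45981737 to 46005050 and from 46098097 to 46132849, with 93046 bases between them. COL6A2 had 619, 566 and 576 CPM with TGF-β1 and 437, 443 and 449.7 CPM without. COL6A1 had 363, 327 and 330.1 CPM with TGF-β1 and 286, 274 and 285 CPM without. The groups did not overlap for either gene, but the steps were small. The log2 fold change was 0.41 ± 0.03 (SE) for COL6A2 (edgeR adjusted p = 3.55e-14) and 0.27 ± 0.04 for COL6A1 (edgeR adjusted p = 3.58e-08). With scaling by library totals alone, which moved the median of all genes by -0.12, the COL6A1 value was 0.15 and still passed the test.

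Because the chains differ in change, their proportions differed between groups. The ratio of COL6A3 to COL6A1, taken per length as FPKM over FPKM, was 0.670, 0.675 and 0.644 with TGF-β1 and 0.246, 0.245 and 0.238 without. The groups were far apart, and the log2 ratio of counts was 1.45 higher with TGF-β1 (exact permutation test, two-sided p = 0.1, the smallest that 3 against 3 allows). For COL6A2 over COL6A1 the FPKM ratio was 1.69, 1.72 and 1.73 with TGF-β1 and 1.52, 1.6 and 1.56 without. That difference was 0.13 on the log2 scale (exact permutation test, two-sided p = 0.1), again with no overlap. Scaling between libraries cancels in these ratios. COL6A3 supplied 38.5% of the members' counts with TGF-β1 and 15.9% without.

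**Figure D2:**
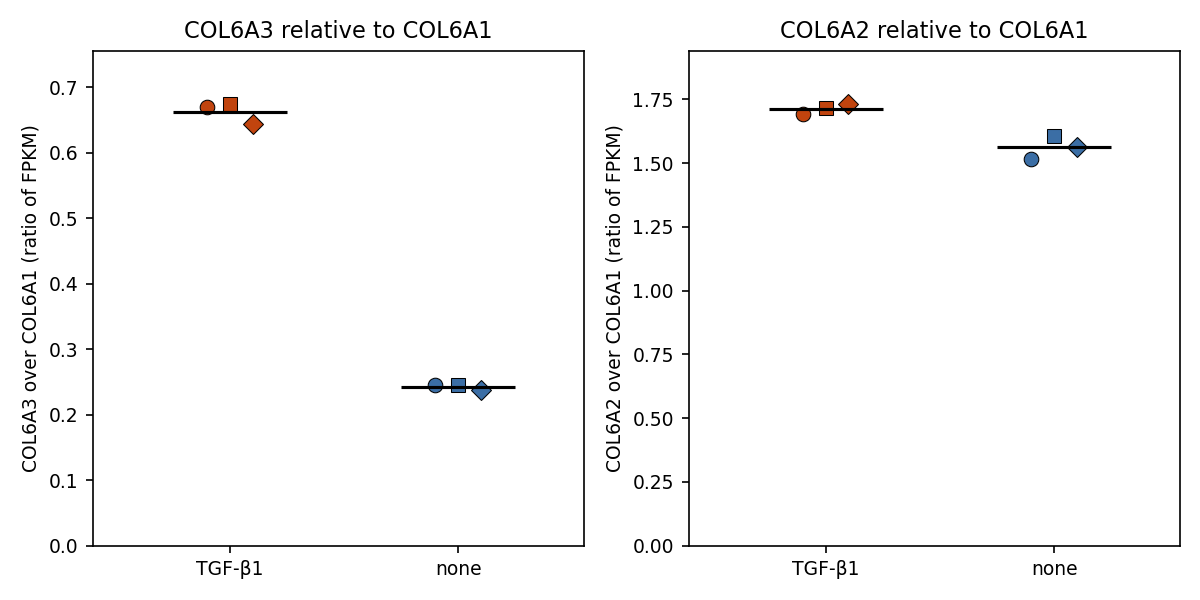
Ratio of COL6A3 (left) and COL6A2 (right) to COL6A1 in each library, as FPKM over FPKM, with TGF-β1 and without (n = 3 each; lines are means, axes start at 0). COL6A3 over COL6A1 averaged 0.663 with TGF-β1 and 0.243 without, and COL6A2 over COL6A1 averaged 1.71 and 1.56.

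COL7A1, which encodes the single chain of the anchoring fibril collagen (chromosome 3, 48564073 to 48595267, minus strand, 118 exons in the longest transcript), also rose. Its level was 92.0, 76.2 and 66.2 CPM with TGF-β1 and 43.6, 43.7 and 35.1 CPM without. The groups did not overlap, but replicates of a group differed more than for the collagen VI genes. The means were 78.2 ± 13 CPM with TGF-β1 and 40.8 ± 4.95 CPM without (SD, n = 3 each), a log2 fold change of 0.93 ± 0.17 (SE; edgeR adjusted p = 0.0116). Leaving out 1 library at a time gave 0.81 to 1.04. The adjusted p over all alternatives ran from 4.51e-14, in edgeR with the replicate number as a block, to 0.047, in edgeR without TGF-β1 replicate 2. Replicate 3 was the lowest library in both groups.

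The network-forming collagen VIII went the other way, as far as it could be measured. COL8A1 (chromosome 3, 99638475 to 99799226, plus strand), the α1 chain of a collagen known from vessel walls and corneal membranes, had 46.5, 43.2 and 44.0 CPM with TGF-β1 and 89.2, 80.4 and 84.8 CPM without. Every TGF-β1 library was far below every untreated one. The log2 fold change was -0.93 ± 0.05 (SE; edgeR adjusted p = 1.04e-18), at percentile 4.8 of all tested genes. COL8A2, the α2 chain (chromosome 1, 36095236 to 36125220, minus strand), had only 3, 2 and 16 counts with TGF-β1 and 3, 19 and 12 counts without. The groups overlapped, and the log2 fold change of -0.51 had a 95% interval of -1.93 to 0.92 (edgeR adjusted p = 0.62), so no difference was detectable at this depth. The log2 ratio of COL8A1 to COL8A2 averaged 8.0 ± 1.64 with TGF-β1 and 8.17 ± 1.5 without (SD, n = 3 each; exact permutation test, two-sided p = 1).

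Of the 3 FACIT genes 2 were tested, and only COL12A1 was called. COL12A1, whose long chain carries fibronectin type III and von Willebrand factor A repeats and bridges fibrils to other matrix proteins (chromosome 6, 75084326 to 75206051, minus strand, 66 exons in the longest transcript), fell. It had 266, 256 and 257 CPM with TGF-β1 and 468, 448 and 451 CPM without. The means were 259 ± 5.47 CPM with TGF-β1 and 456 ± 10.6 CPM without (SD, n = 3 each), a log2 fold change of -0.81 ± 0.03 (SE; edgeR adjusted p = 2.29e-24). Replicates lay close together in both groups, and the gap between the groups was many times their spread.

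COL16A1, a minor fibril-associated collagen (chromosome 1, 31652247 to 31704319, minus strand), had 12.9, 10.7 and 10.1 CPM with TGF-β1 and 7.77, 9.55 and 10.2 CPM without. The highest untreated library overlapped the lowest TGF-β1 library. Its log2 fold change was 0.29 with a 95% interval of 0.03 to 0.55 and missed the threshold after adjustment (edgeR adjusted p = 0.0673). Without TGF-β1 replicate 3 the value was 0.36 (edgeR adjusted p = 0.0385), and without untreated replicate 3 it was 0.37 (edgeR adjusted p = 0.0443), both past the threshold. It was 0.17 with library totals alone (edgeR adjusted p = 0.295). The range of the adjusted p over the alternatives was 0.0385 to 0.497. COL12A1 relative to COL16A1 was lower with TGF-β1 by 1.10 on the log2 scale, with mean log2 ratios of 4.54 ± 0.15 with TGF-β1 and 5.65 ± 0.23 without (SD, n = 3 each; exact permutation test, two-sided p = 0.1).

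COL14A1, the FACIT gene closest to COL12A1 in domain structure (chromosome 8, 120059780 to 120372036, plus strand), was close to undetected. It had 0, 0 and 0 counts with TGF-β1 and 0, 4 and 0 without, and was not tested. A count of 0 allows up to 3 counts, which is 0.105 to 0.121 CPM in the TGF-β1 libraries, counting error only. No fold change is given.

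COL13A1 had the largest log2 fold change in size among the tested members in the count fit, though not on log2(FPKM + 1), where that of COL6A3 was larger. It encodes a transmembrane collagen of cell adhesions and neuromuscular junctions (chromosome 10, 69801867 to 69964275, plus strand). It had 55, 93 and 75 counts with TGF-β1 and 314, 314 and 330 without, or 2.22, 3.24 and 2.90 CPM against 10.0, 10.3 and 11.8 CPM. Each TGF-β1 library was well below each untreated one. The log2 fold change was -1.93 ± 0.16 (SE; edgeR adjusted p = 1.34e-13), at percentile 0.79 of all tested genes. On deposited FPKM with a pseudocount of 1 it was -0.92, since that pseudocount is large beside the gene's mean levels of 0.461 FPKM with TGF-β1 and 1.76 FPKM without.

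Levels of different genes were compared per length, on the deposited FPKM scale. With TGF-β1 the order was COL6A2 (106 FPKM), COL6A1 (61.9), COL6A3 (41.0), COL12A1 (20.2), COL7A1 (6.87), COL8A1 (4.61), COL16A1 (1.18), COL13A1 (0.461), COL8A2 (0.0563) and COL14A1 (0). Without it the order was COL6A2 (79.8 FPKM), COL6A1 (51.2), COL12A1 (35.4), COL6A3 (12.4), COL8A1 (8.75), COL7A1 (3.58), COL13A1 (1.76), COL16A1 (0.959), COL8A2 (0.0794) and COL14A1 (0.0049). COL6A3 and COL12A1, COL7A1 and COL8A1, and COL16A1 and COL13A1 thus stood in the opposite order in the 2 groups. The replicates of neighbouring genes did not overlap in any of these steps. The gene lengths behind FPKM are the bases of all annotated exons together, 19633 for COL6A3 against 10749 in its longest transcript. Rescaled to the longest transcript, COL6A1 (78.0) and COL6A3 (74.9) overlapped with TGF-β1, as did COL7A1 (8.20) and COL8A1 (7.60), and no other neighbours did. Few exonic bases of the members are shared with other genes: 0.325% for COL7A1 (with MIR711), 1.26% for COL16A1 and 0 for the other 8.

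Together the members gained less than the other collagens. Their summed level was 2151 ± 124 CPM with TGF-β1 and 1578 ± 22.2 CPM without (SD, n = 3 each). COL6A3 alone stood at 828 CPM with TGF-β1 and 251 CPM without, a step about as large as that of the sum. Among the other members there were both rises and falls. The other collagen chain genes together stood at 8325 ± 744 CPM with TGF-β1 and 3252 ± 64.4 CPM without. The members accordingly took 19.98%, 21.0% and 20.7% of all collagen counts with TGF-β1 and 32.5%, 32.7% and 32.8% without, a difference of -12.1 percentage points (exact permutation test, two-sided p = 0.1, the smallest possible). On the FPKM scale the shares were 24.4% with TGF-β1 and 38.4% without. Collagen VI chains, summed as FPKM, stood at 0.529 times COL1A1 with TGF-β1 and at 1.02 times COL1A1 without (exact permutation test, two-sided p = 0.1). Summed as counts, they stood at 0.440 times COL1A1 with TGF-β1 and at 0.688 times without. COL1A1, the main chain of fibrillar collagen I in these cells, reached 396 ± 31.2 FPKM with TGF-β1 and 140.1 ± 0.956 FPKM without.

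**Figure D3:**
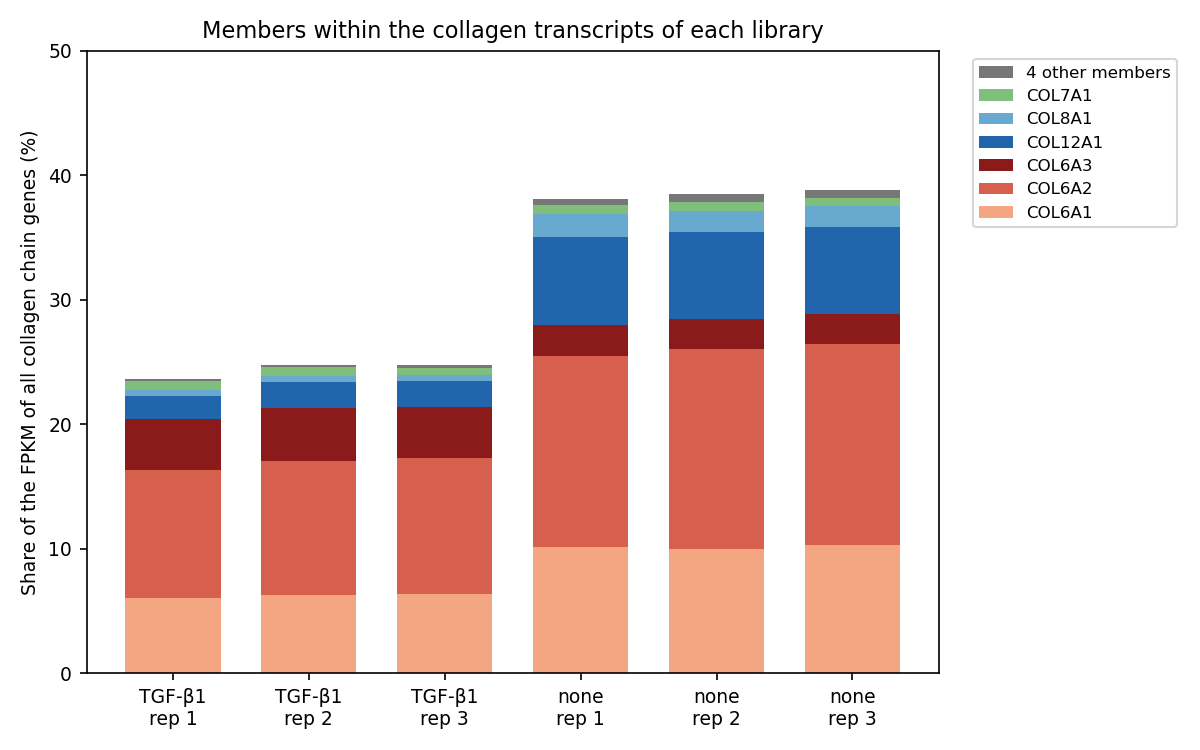
Share of the members in the summed FPKM of all 44 collagen chain genes (stacked bars, percent) in each library, TGF-β1 replicates on the left and untreated ones on the right. The stacks reach 24.4% on average with TGF-β1 and 38.4% without, with COL6A3 wider and COL12A1 narrower in the TGF-β1 libraries.

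Among the fibrillar chain genes 7 of 9 tested rose and 0 fell, with a median log2 fold change of 1.28 and a lowest value of 0.30. COL5A3 (3.49) and COL27A1 (2.41) had the largest rises there. COL5A3 had only 13, 15 and 5 counts without TGF-β1, and its value was 0.60 on log2(FPKM + 1) without a filter. Basement membrane chains, like the members, were split, with 4 of 6 higher and 2 lower and a median of 1.01. COL15A1, with 38, 19 and 49 counts without TGF-β1, rose by 2.29, or by 0.66 on log2(FPKM + 1). COL4A1 (2.07) also rose, and the neighbouring X-linked chain genes COL4A6 (-2.23) and COL4A5 (-1.34) fell. These groups were not tested against the members. Over all tested genes 20.2% were called higher and 18.7% lower, and the counts of each list below stand beside the same shares.

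**Figure D4:**
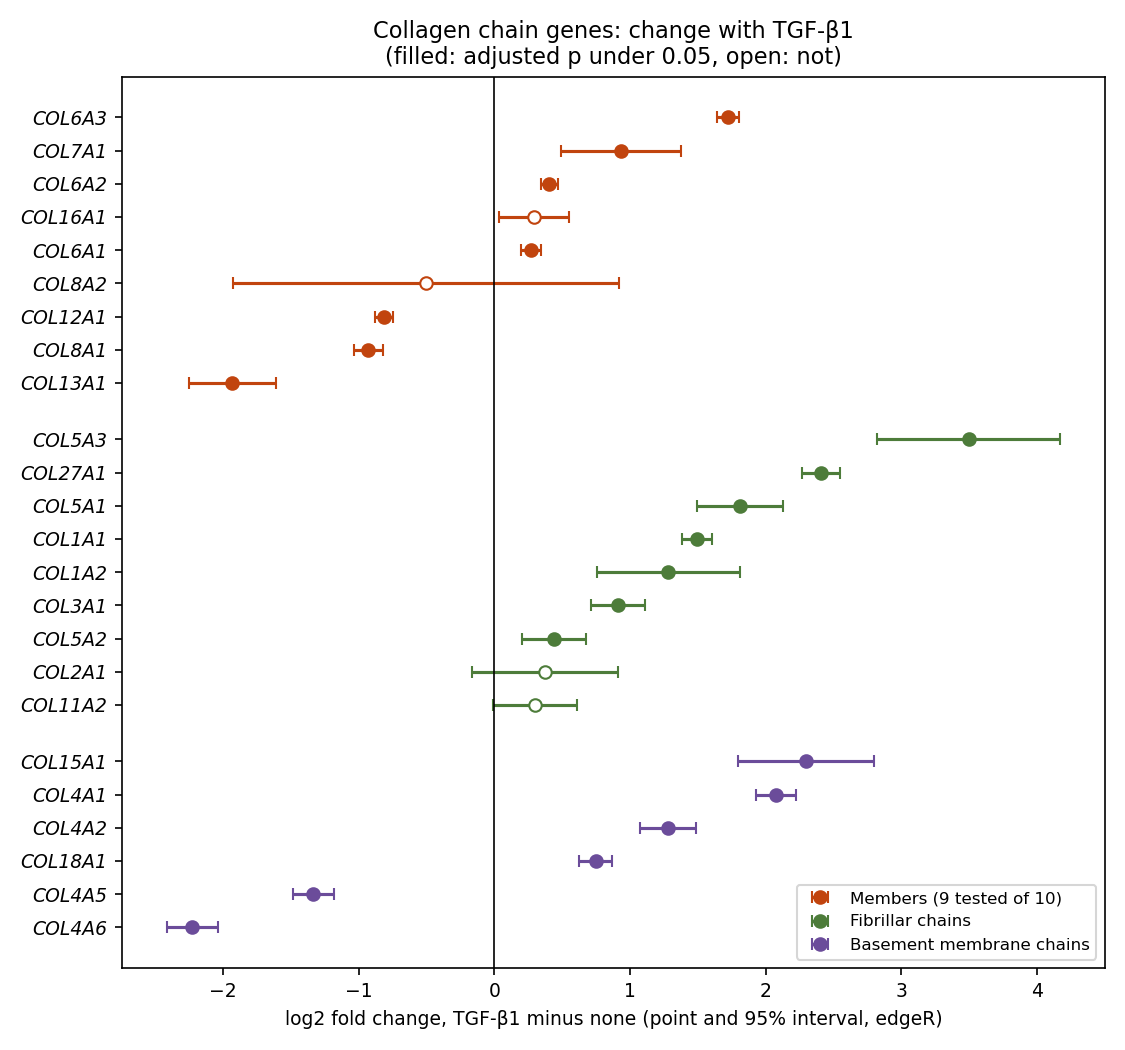
Log2 fold change (TGF-β1 minus none; points, with 95% intervals from edgeR) of the tested members and of the tested fibrillar and basement membrane chains. Filled points passed the adjusted threshold; members run from COL6A3 at 1.72 to COL13A1 at -1.93, and no called fibrillar chain is below 0.

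Most relatives of the members had too few counts to be tested. Of 7 other FACIT genes 1 was tested, COL9A2, and it was not called. Of 8 other microfibrillar, network and transmembrane chain genes 3 were tested. The epithelial transmembrane collagen COL17A1 fell by 1.54 on the log2 scale, to 6.30 ± 0.692 CPM with TGF-β1, against 18.2 ± 1.6 CPM without (SD, n = 3 each; edgeR adjusted p = 1.23e-14). COL25A1, another transmembrane collagen, was called higher at 0.878 CPM with TGF-β1 and 0.36 CPM without (edgeR adjusted p = 0.0466), and in 14 of 17 alternatives no gene of this list was called higher. It was named after its values were seen. COL6A5 had 0 counts in every library.

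Of 10 collagen receptors, all tested, 4 rose and 1 fell. Their log2 fold changes ran from -0.35 to 0.64 (median 0.23). ITGB1, the common β subunit of the collagen-binding integrins, rose by 0.64 and its partner ITGA1 by 0.60, while the collagen-activated kinase DDR2 fell by 0.35. The collagen VI receptor gene CSPG4, which encodes NG2, had a log2 fold change of 0.02 (edgeR adjusted p = 0.702). With library totals alone 3 receptors were called lower.

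Of 11 matrix partners 6 were tested, and 3 rose and 2 fell. Fibronectin (FN1) rose by 2.77 and tenascin C (TNC) by 1.19. MATN2, a matrilin of filamentous networks, fell by 0.74, and the tenascin X gene TNXB, whose protein is known to bind collagens XII and XIV, fell by 0.47, a call that limma on FPKM did not make (adjusted p = 0.128 to 0.299). The small leucine-rich proteoglycan genes of this list were hardly present: DCN and FMOD had 0 counts in every library, and BGN and LUM did not pass the filter on low counts.

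All 7 genes of the anchoring complex that collagen VII joins in skin were tested, and 5 of them fell, or 4 in 10 of the 17 alternatives. The integrin subunit ITGB4 fell by 1.21 and DST by 0.58, while the cytolinker PLEC rose by 0.65. LAMA3, LAMB3 and ITGA6 also fell (-0.41, -0.096 and -0.26). Of 12 genes for collagen folding and export, 6 rose and 0 fell, against 20.2% and 18.7% of all tested genes. The median log2 fold change of this list was only 0.10. The largest rises were those of the collagen chaperone gene SERPINH1 (0.58) and the coat protein gene SEC24D (0.34). MIA3, which is known for the export of collagen VII, had a log2 fold change of 0.06 (edgeR adjusted p = 0.328). No gene of this list was lower at an unadjusted p under 0.05 in edgeR, and DESeq2 called 0 lower, but 3 were called lower with library totals alone and 1 with upper-quartile factors.

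**Figure D5:**
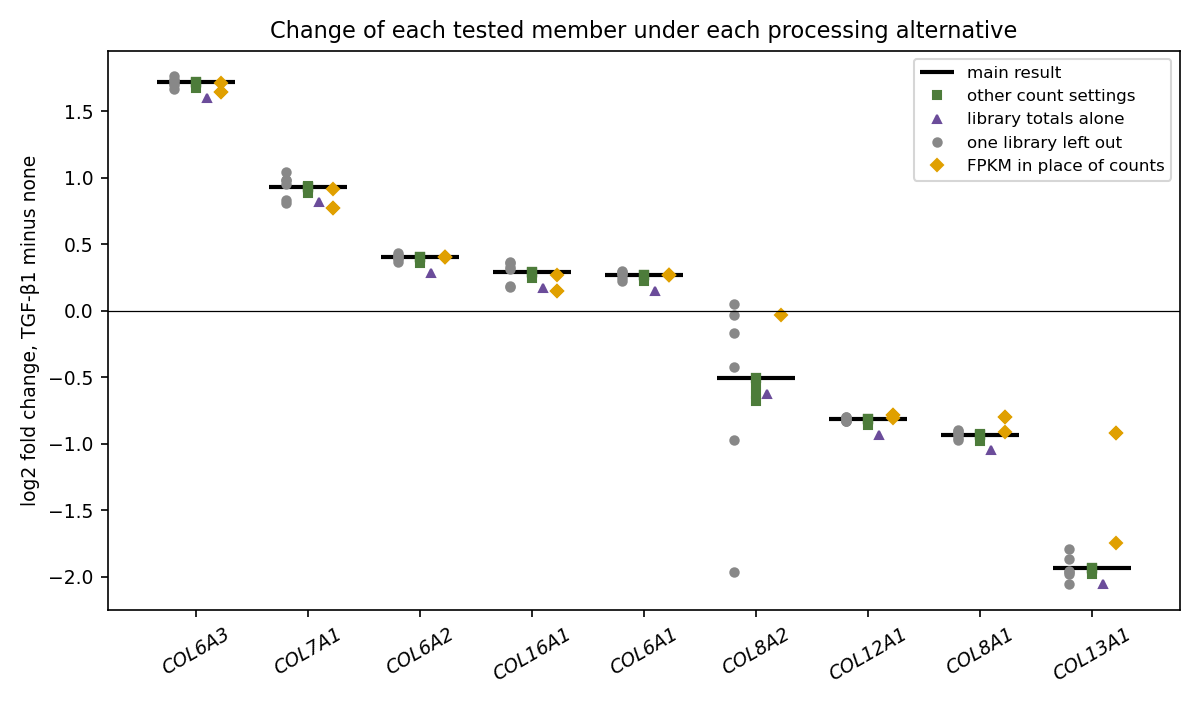
Log2 fold change of each tested member (TGF-β1 minus none) in the main result (line) and under 17 processing alternatives (points by kind). The values of the 7 called members stay on their side of 0, COL13A1 shrinks to -0.92 on FPKM with a pseudocount of 1, and COL8A2 spreads from -1.96 to 0.05.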

How the data were processed

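RNA sequencing of 6 libraries was analysed from 2 deposited tables. The deposited count table holds whole-number counts per gene, and the deposited FPKM table holds the authors' values scaled for gene length and library size. The submitters' processing notes name HISAT2 2.2.1, fastp and build hg38. The sources used here do not give the counting tool or its use of strand. Another 6 per-sample columns in each table matched no sample label and were not used. All 58735 identifiers matched GENCODE release 29 by position and strand. Deposited FPKM equalled counts over gene length and 1 size per library, 0.984 to 0.987 times the total with TGF-β1 and 1.07 to 1.08 times without, and so is no independent measurement.

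Counts were tested with edgeR 4.0.16 (filterByExpr defaults, TMM, robust glmQLFit and glmQLFTest, two-sided, Benjamini-Hochberg over 17215 genes, R 4.3.3). CPM uses TMM-scaled sizes, and an SE is the absolute log2 fold change over the square root of F. Replicates differed beyond counting noise (chi-square over its degrees of freedom, 3.66 to 4.86). Ratios within a library were compared by exact permutation. The ratio of COL12A1 to COL14A1 is not given because COL14A1 was at 0 in 5 libraries. Alternatives used DESeq2 1.42.0 and limma 3.58.1. Scripts were tested on simulated counts. Genes named outside the members were, for each of 8 lists, up to 2 called genes per direction with the largest change and a mean of at least 1 CPM, and others named for a small count or a known role were chosen after their values were seen. The result of 1 gene that this rule selects is not reported here. Members and lists were chosen with earlier results of these data known. Promoter sequences are those of RefSeq, GRCh38.p14.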

Additional observations from a re-analysis of the deposited data

How the results depend on the processing

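The 7 called members kept their direction and their call under all 17 alternatives (other scalings, filters and tools, the replicate number as a block, 1 library left out, FPKM). Over all genes, library totals alone gave 2022 higher and 5352 lower against 3471 and 3226, and limma on FPKM without a filter gave 1978 lower. Leaving out 1 library gave 3089 to 3366 higher and 2850 to 3009 lower genes. COL16A1 passed without TGF-β1 replicate 3 (0.36) and without untreated replicate 3 (0.37), within a leave-one-out range of 0.18 to 0.37, and COL8A2 ranged from -1.96 to 0.051, the value without untreated replicate 2. The difference in the log2 ratio of COL8A1 to COL8A2, -0.16, ranged from -0.80 to 0.76 when 1 library was left out. NAT10, at 0.03, changed sign with upper-quartile factors (-0.017) and library totals alone (-0.090), and ranged from -0.016 to 0.084 when 1 library was left out, never past the threshold. The cause was not tested. Over all tested genes, same-numbered libraries did not deviate together (correlations of -0.0049, 0.011 and -0.0091), but this cannot show whether the numbers pair samples. The replicate block gave 3431 higher and 3182 lower genes, 4 members higher and 3 lower, and COL7A1 at 0.93. The edgeR adjusted p of COL7A1 was 4.51e-14 with the block and 0.0116 in the main result. Counts limit COL8A2 and COL14A1. COL8A2 has no value under the 1 CPM filter and in the 2 filtered FPKM fits, which leave it out.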
